A study of Mus musculus with 4 samples.

Results

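Haematopoietic stem cell (HSC)-enriched LSK-SLAM cells of the embryonic day (E) 14 fetal liver (FL) were compared with the same phenotype from adult bone marrow (BM), and all 4 sequenced libraries of the series, 2 from each tissue, entered the comparison. LSK-SLAM cells lack lineage antigens, carry Sca1, cKit and CD150, and lack CD48. They were sorted from *BRE-GFP* transgenic mice on a C57BL/6 background, in which GFP is driven by a BMP-responsive element that Smad1/5 binds, so that GFP+ cells are BMP-activated and GFP- cells are not. The groups were GFP+ cells of the E14 FL, GFP- cells of the E14 FL, GFP+ cells of adult BM and GFP- cells of adult BM, with 1 library each and the transgene in all of them. The difference between tissues was therefore measured 2 times, in GFP+ cells and again in GFP- cells. Within a gene, the spread between these 2 differences is the only error estimate. Tissue and developmental age changed together and cannot be told apart. The sorts also differed: CD11b was among the lineage antibodies for the BM only, and only the BM was passed over Ficoll. How many embryos or adult mice went into a library, and their sex, are not given in the sources used here.

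HSCs divide and expand in the FL, and most become quiescent after they have settled in the adult BM. The RNA-binding protein Lin28b is a known switch of this transition: it blocks the maturation of let-7 microRNAs in fetal progenitors, and let-7 in turn represses growth regulators such as *Hmga2* and the *Igf2bp* genes. Adult stem and progenitor cells are further known for early-response transcription factors such as Fos and Jun, which are induced within minutes of a stimulus, and for antigen-presentation genes, of which the MHC class II genes in most tissues mark immune cells.

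Expression was deposited as FPKM, the fragments mapped to a transcript scaled by its length and by the size of the library. Of 23906 gene symbols, 13609 had at least 1 FPKM in at least 1 library and were compared as log2(FPKM + 1), FL minus BM, so that positive differences are higher in the FL. Below, 4 FPKM values in a row are always in the order FL GFP+, FL GFP-, BM GFP+ and BM GFP-, and a pair of differences gives GFP+ first. A gene was called when it was over 2-fold apart on this scale in the same direction in both fractions. Under this rule 639 genes were higher in the FL, which is 4.70% of those compared, and 1170 were higher in the BM, or 8.60%. Opposite calls were fewer: 126 genes (0.926%) were over 2-fold higher in the FL among GFP+ cells and over 2-fold higher in the BM among GFP- cells, and 219 (1.61%) were the other way round. Of the 2154 genes over 2-fold apart in both fractions, 84.0% had 1 direction. Across genes, which are not independent replicates and here share library depth and normalization, Pearson's r between the 2 differences was 0.399. The genes just inside the threshold were *Gtpbp6* (smaller difference 1.001) and *Csnk1g3* (-1.001), and those just outside were *Tmem246* (0.999) and *Eapp* (-0.999).

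**Figure D1:**
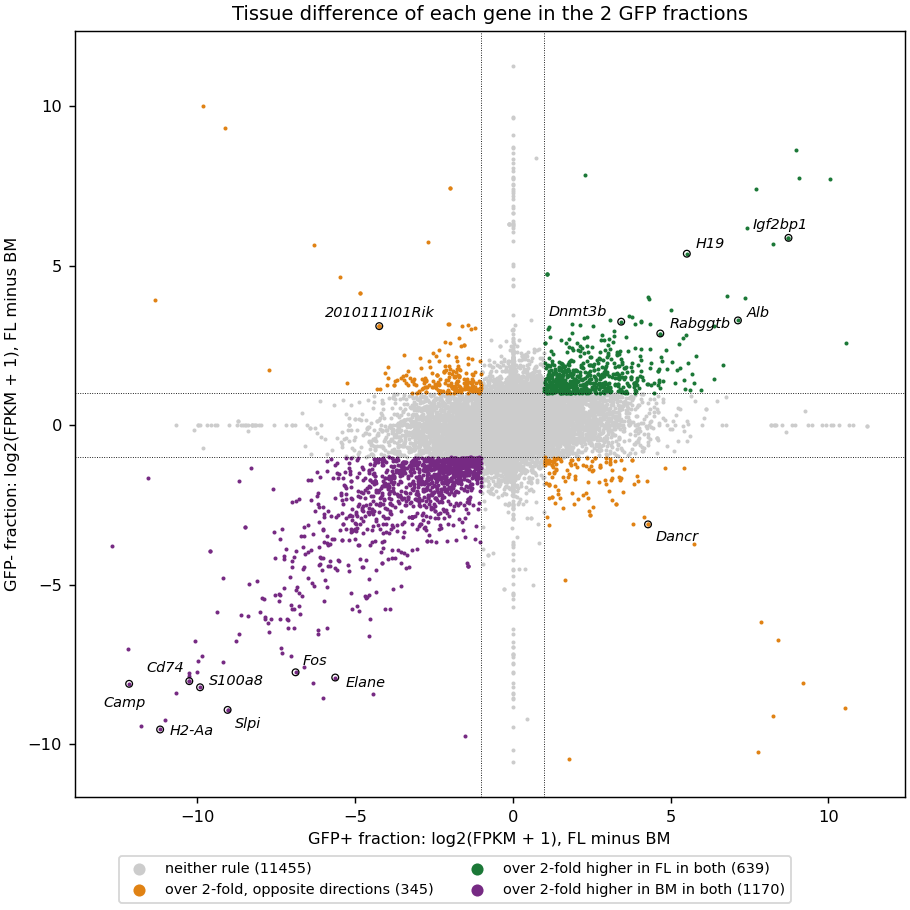
Each point is 1 of the 13609 genes compared, with the FL minus BM difference in log2(FPKM + 1) among GFP+ cells on the horizontal axis and among GFP- cells on the vertical axis; dotted lines mark 2-fold. The 1170 genes higher in the BM in both fractions (purple) reach further from the origin than most of the 639 higher in the FL (green), and the 345 opposite calls (orange) fill the other 2 corners.

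The BM-higher genes were also further apart than the FL-higher ones. Their median differences were -2.87 and -1.77, against 2.02 and 1.38 for the FL-higher genes. At 16-fold in both fractions 116 BM-higher and 11 FL-higher genes were left, and at 4-fold 449 and 84, an FL share of 15.8% in place of 35.3%. Many BM-higher genes were listed at 0 in the FL: 589 of them (50.3%) in at least 1 FL library and 256 in both, against 140 (21.9%) and 26 FL-higher genes in the BM. Detection also differed between libraries, with 12372, 15556, 13489 and 17345 symbols above 0, fewer in the FL in each fraction. The share of all compared genes listed at 0 was not computed. The split between tissues depended on scaling. The summed FPKM differed between libraries (646854, 541453, 1000848 and 729311), and bringing all 4 to 1 total shifted the differences of single genes up by a median of 0.54 among GFP+ and 0.39 among GFP- cells. The median difference of all genes went from -0.03 to 0.23 and from -0.03 to 0.30, and FL-higher genes then made up 61.2% of shared calls. Other scalings moved this share less, to 43.1% with equal upper quartiles and 38.6% with median-centred ratios. Among genes with at least 1 FPKM in all 4 libraries the share was 46.8%. All 639 FL-higher genes and 846 of the 1170 BM-higher genes were still called with equal totals. In all, equal totals called 1335 of 13740 compared genes higher in the FL and 846 higher in the BM. Counts with equal totals given below stand against these numbers, not against 4.70% and 8.60%.

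Most BM-higher genes had their highest level in the GFP+ library of the BM. Of the 1170, 951 (81.3%) had more FPKM in the BM GFP+ than in the BM GFP- library, compared with 51.1% of all genes, and 529 (45.2%) were over 2-fold higher there; 583 were within 2-fold. Of the FL-higher genes, 408 (63.8%) were higher in the FL GFP+ library, compared with 47.6% of all genes, and 470 (73.6%) lay within 2-fold between the FL fractions.

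With 2 libraries against 2, an exact permutation test of 1 gene cannot give a two-sided p below 0.33. A limma fit across all genes, with the GFP fraction as a block and the Benjamini-Hochberg adjustment, called 234 genes higher in the FL (1.72%) and 769 higher in the BM (5.65%), with adjusted p-values down to 8.82e-66. That fit has 1 residual degree of freedom and borrows 205 from the other genes. Without the trend in variance the smallest adjusted p was 0.0364 and 9 and 66 genes were called, and without the block for the GFP fraction 18 and 172. Fits with any 1 library left out also lacked that block and kept 1 library in a tissue. Their calls therefore cannot show what the loss of a library alone does, and are not given. The 5 lowest adjusted p-values went to *S100a8*, *Cd74*, *S100a9*, *Ngp* and *H2-Aa* in the BM and to the short RNAs *Snord52*, *Mir1839*, *Snord72*, *Mir142* and *Snord100* in the FL. Adjusted p-values are not given gene by gene, and the calls below are those of the 2-fold rule in both fractions.

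The labels of both tissues were checked against genes of known developmental timing. *Lin28b* stood at 2.57, 5.96, 0.0443 and 0.0587 FPKM, so it was present in both FL libraries and near 0 in both BM libraries. *Afp*, the fetal albumin, was at 149, 5.66, 12.9 and 4.79 FPKM, high in the FL GFP+ library and at similar low levels in both GFP- libraries. The embryonic globins *Hbb-y* and *Hba-x* were listed at 0 in all 4 libraries and *Hbb-bh1* at 0.177, 4.15, 0.243 and 0 FPKM. *Lin28b* sided with the labels in both fractions, and *Afp* in GFP+ cells only.

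Fetal regulators of RNA and chromatin were higher in the FL. Of 11 listed genes 8 reached 1 FPKM, 6 of these were called higher in the FL and 0 in the BM; all 8 differences were positive in both fractions (median difference 1.87 and 2.57). *Igf2bp1*, an RNA-binding protein that stabilises growth-related transcripts, was the leading FL gene, at 426, 58.8, 0 and 0.0184 FPKM. The files list the same 4 values for *Mir3063*, so reads of the gene and of that microRNA symbol cannot be told apart. Its relatives *Igf2bp2* and *Igf2bp3* stood at 14.1, 28.9, 0.0367 and 4.56 FPKM and at 20.3, 15.8, 4.83 and 0.844 FPKM. FL and BM libraries did not overlap for any of the 3, which their call in both fractions made likely, and *Igf2bp1* was several-fold higher in the FL GFP+ than in the FL GFP- library. *Hmga2*, a chromatin protein that promotes self-renewal of fetal HSCs, was at 9.94, 13.1, 1.98 and 0.890 FPKM, differences of 1.87 and 2.90. *Mycn*, a growth-promoting transcription factor, was at 292, 228, 16.4 and 69.4 FPKM, differences of 4.07 and 1.70. *Hmga1*, at 391, 269, 154 and 139 FPKM, and *Arid3a*, at 4.901, 4.73, 2.19 and 0.502 FPKM, were above their BM levels in both fractions but past 2-fold in only 1. *Lin28a*, *Plag1* and *Sox17* stayed under 1 FPKM in every library.

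The let-7 microRNAs that *Lin28b* blocks all read the same target letters, and sites for them are found in most of these transcripts, so both are shown. Mature microRNAs were not measured by these libraries. The mature sequences (RefSeq, GRCm38.p6) of the let-7a hairpin on chromosome 13 (chr13:48538239-48538260, minus strand) and of miR-98 on chromosome X (chrX:151913229-151913250, plus strand) are printed 5′ to 3′ with the seed, bases 2 to 8, in capitals:
mmu-let-7a-5p: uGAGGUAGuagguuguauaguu
mmu-miR-98-5p: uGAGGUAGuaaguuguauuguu
The 8-letter match CTACCTCA, which pairs with that seed and adds an A opposite base 1, was searched on the transcript strand of the longest 3′ UTR of each gene (GENCODE vM1, NCBIM37). Seed matches without that A were not counted. It occurred in 7 of the 11 listed genes and in 406 (3.50%) of the 11594 compared genes with an annotated 3′ UTR. The 3′ UTRs of the list were long, with a median of 2694 bases against 1094, and among compared genes of at least that length 8.88% held a match. Since *Hmga2* and the *Igf2bp* genes were listed as known targets of let-7, a share above the background was built into the list. The 11 also include *Lin28a*, *Plag1* and *Sox17*, which were not among the compared genes. *Igf2bp1* had 3 matches, *Lin28a* 2, and *Lin28b*, *Igf2bp2*, *Igf2bp3*, *Hmga2* and *Arid3a* 1 each. *Hmga1*, *Plag1*, *Mycn* and *Sox17* had 0. The first match in the 3′ UTR of 5 genes called higher in the FL is shown within 30 bases, all on the minus strand, in capitals:
Lin28b, chr10:45100826-45100855: ccttcacccgggcgggaagtCTACCTCAtg
Igf2bp1, chr11:95823090-95823119: gcagtgctgtgcgaagtaaaCTACCTCAag
Igf2bp2, chr16:22059544-22059573: gaaaaacacacaaataaaagCTACCTCAgg
Igf2bp3, chr6:49036784-49036813: aaacgtgcatttttactcaaCTACCTCAgg
Hmga2, chr10:119801278-119801307: ggggcgccgacattcaatttCTACCTCAgc
A match describes letters and is not evidence that the site was used in these cells. *Mycn* was higher in the FL with no full CTACCTCA match, and shorter matches were not counted.

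Imprinted growth-control genes, which are expressed from 1 parental allele and set fetal growth, leaned the same way. Of 22 listed genes 18 were compared, and 8 were called higher in the FL (44.4%, against 4.70% of all genes) and 0 in the BM. The median differences were 1.36 and 1.38. *H19*, a non-coding RNA of the *Igf2* locus, stood at 44.7, 42.1, 0 and 0.0368 FPKM, nearly equal in both FL fractions and at or near 0 in both BM libraries. *Igf2* itself, a fetal growth factor, was at 17.5, 12.5, 0.0969 and 0.394 FPKM, and *Dlk1*, a Notch-like surface protein of fetal tissues, at 8.96, 4.09, 0 and 0.0753 FPKM. *Grb10*, an adaptor that restrains insulin and IGF receptors, was abundant in the FL at 87.8, 88.5, 7.45 and 16.9 FPKM. The other called members were *Meg3* (1.56 and 1.94), *Mest* (1.16 and 3.09), *Impact* (1.92 and 1.73) and the cell-cycle inhibitor *Cdkn1c* (1.07 and 1.08). *Cdkn1c*, the p57 protein gene, had 16.1, 14.2, 7.14 and 6.17 FPKM, so in each fraction the FL value was a little over 2-fold that of the BM. *Ndn*, at 87.8, 60.8, 8.45 and 30.2 FPKM, missed the threshold in GFP- cells. *Gnas* was the most abundant member, at 178, 144, 317 and 253 FPKM, and was lower in the FL libraries, within 2-fold. *Phlda2*, an inhibitor of placental growth, was an opposite call, at 16.9, 2.08, 0 and 21.5 FPKM.

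**Figure D2:**
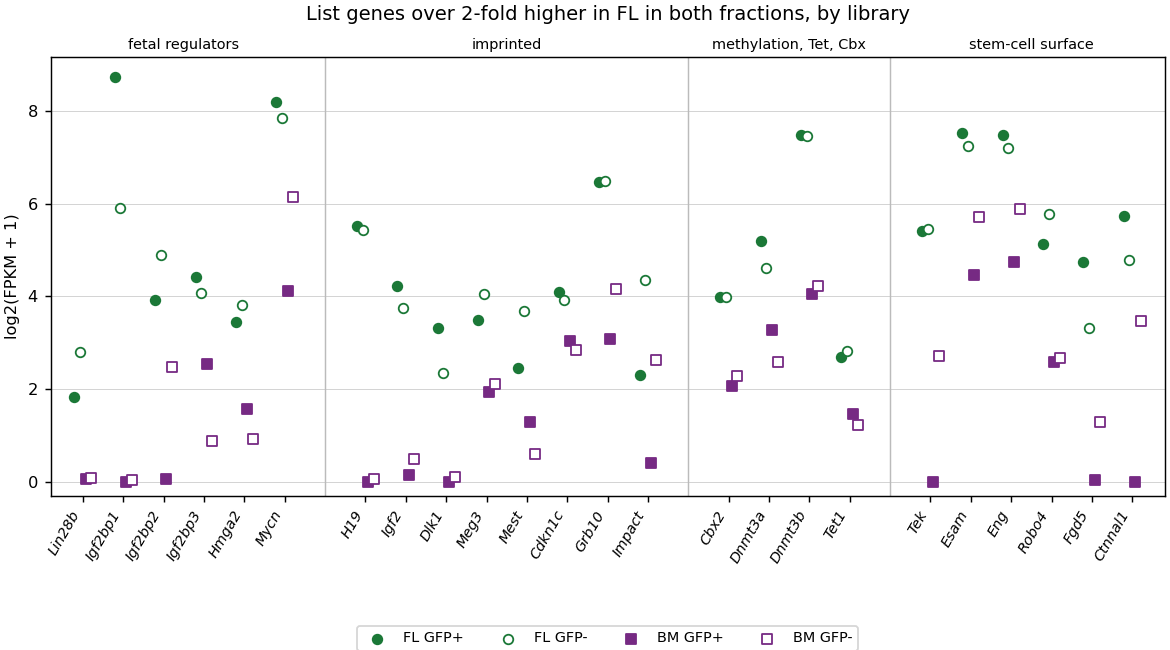
The log2(FPKM + 1) of each library is shown for the members of 4 gene lists that were over 2-fold higher in the FL in both fractions; circles are FL, squares BM, filled symbols GFP+ and open symbols GFP-, with no error bars because each symbol is 1 library. *Dnmt3b* and *Robo4* have close values in both fractions of each tissue, whereas *Igf2bp1* differs between the FL fractions and *Tek* and *Ctnnal1* are at 0 in the BM GFP+ library alone.

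Among 25 Polycomb, DNA methylation and Tet genes 4 were called higher in the FL (16%, against 4.70% of all genes) and 0 in the BM. With equal totals 8 were called higher in the FL, beside 1335 of all 13740 compared genes. *Dnmt3b*, a de novo DNA methyltransferase, led the FL-higher genes with at least 1 FPKM in every library, at 177, 176, 15.5 and 17.6 FPKM, differences of 3.44 and 3.25. Limma gave 3.34 with an SE of 0.46, an error drawn mostly from other genes. *Dnmt3a*, the other de novo enzyme, was at 35.4, 23.4, 8.61 and 4.99 FPKM, the Polycomb reader *Cbx2* at 14.8, 14.8, 3.16 and 3.83 FPKM, and *Tet1*, which oxidises methylcytosine, at 5.44, 6.02, 1.73 and 1.33 FPKM. For each of these 4 genes the fractions of a tissue lay within 2-fold. Their FL and BM libraries did not overlap, which the call in both fractions made likely. *Dnmt1*, the maintenance methyltransferase, was not called, at 167, 106, 64.03 and 57.3 FPKM, differences of 1.37 and 0.88. *Ezh2*, the main catalytic subunit of Polycomb complex 2, was not called either, at 36.02, 28.6, 39.1 and 32.6 FPKM, differences of -0.12 and -0.19. Its paralog *Ezh1* was listed at 0 in the FL GFP+ library alone, at 0, 11.3, 29.6 and 12.6 FPKM. *Phf19*, an accessory subunit of that complex outside the list, ranked among the leading FL genes at 33.5, 13.98, 3.88 and 1.09 FPKM.

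Of the remaining leading FL genes, 3 encode basement-membrane collagens: *Col18a1* was at 110.2, 65.6, 0 and 2.99 FPKM, *Col4a1* at 31.8, 26.8, 0.0229 and 1.25 FPKM and *Col4a2* at 29.2, 47.3, 0.796 and 4.15 FPKM. *Fscn1*, an actin-bundling protein, was at 87.1, 68.3, 3.29 and 6.75 FPKM. *Rabggtb*, a subunit of the enzyme that prenylates Rab GTPases, was the most abundant of the leading genes at 626, 302, 23.5 and 40.2 FPKM and it is listed with the same 4 values as *Snord45c*, a small nucleolar RNA of its introns. *Tnfrsf25*, a death-domain receptor, was at 41.9, 35.4, 4.04 and 2.72 FPKM, *Ramp2*, a partner of the adrenomedullin receptor, at 30.3, 41.3, 3.47 and 5.64 FPKM, and *P2rx2*, an ATP-gated channel, at 12.6, 9.43, 0 and 0 FPKM. In all of these the lowest FL library was above the highest BM library. That follows largely from their choice by large differences in both fractions, and the share of such genes among all those compared was not computed. *Ttpa* (23.7, 13.8, 1.04 and 1.16 FPKM) and *Rbp4* (82.5, 7.67, 0 and 0 FPKM) are genes best known from hepatocytes, and *Lrrn4* had 8.16, 22.2, 0 and 2.01 FPKM. Another 26 of the FL-higher and 22 of the BM-higher genes were short RNA symbols, for which FPKM is unstable, and these were left out of the ranking by size of difference. Symbols listed with the same 4 values also include *Cd74* with *Mir5107*, *Slpi* with *Mir7678*, *Meg3* with *Mir770*, *Ccnd1* with *Mir3962* and *H2-D1* with *H2-L*.

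Hepatocyte transcripts accompanied the FL-higher genes. Of 26 listed hepatocyte genes 18 were compared, and 8 were called higher in the FL (44.4%, against 4.70% of all genes) and 0 in the BM. *Alb*, serum albumin, was at 139.5, 9.49, 0 and 0.0737 FPKM, *Apoa1* at 32.1, 5.21, 0.351 and 0.899 FPKM and *Apoa2* at 33.9, 3.84, 0 and 0.942 FPKM. The FL GFP+ library carried most of this signal: summed over the list, FPKM came to 619, 95.8, 82.5 and 60.3, and 6 of the 8 called genes were over 2-fold higher in FL GFP+ than in FL GFP- cells. *Vtn* (47.9, 0, 0 and 0.249 FPKM) and *Ambp* (12.96, 0.0755, 0 and 0 FPKM) were high in that library alone. Of the 26 listed genes 5 were at 0 in both FL libraries, among them *Cps1*, *Hpx* and *Serpinc1*, and 12 were at 0 in both BM libraries. What part hepatocyte RNA played in the FL-higher calls was not tested, and in bulk libraries fewer cells of a type cannot be told apart from less RNA per cell. Of the FL-higher genes above, *H19*, *Igf2* and *Dlk1* are also known from fetal hepatoblasts.

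Genes that define the stem-cell surface split between tissues. Of 21 compared genes 6 were called higher in the FL and 4 in the BM, with median differences of 2.12 and 0.31, and with equal totals these counts were 9 and 3. Higher in the FL were the angiopoietin receptor *Tek* (41.5, 42.97, 0 and 5.54 FPKM), the adhesion molecule *Esam* (183, 151, 20.9 and 51.1 FPKM), the TGF-beta co-receptor endoglin *Eng* (178, 145, 25.7 and 57.8 FPKM), the guidance receptor *Robo4* (33.98, 54.03, 4.98 and 5.33 FPKM), *Fgd5* (25.8, 8.98, 0.0215 and 1.46 FPKM) and *Ctnnal1* (52.3, 26.4, 0 and 10.03 FPKM). Higher in the BM were *Ly6a*, which encodes Sca1, at 19.7, 46.3, 286 and 146 FPKM, the integrin *Itga2b* (CD41) at 12.5, 11.7, 52.2 and 69.8 FPKM, the tetraspanin *Cd9* at 59.7, 73.2, 182 and 173 FPKM, and *Cd48*, at 51.4, 17.4, 267 and 126 FPKM. *Cd48* and *Ly6a* encode antigens of the sort itself. Cells were gated as CD48 negative in both tissues, and its transcript was present in all 4 libraries. The other sort antigens *Kit* and *Slamf1* (CD150) were at 102, 150.3, 22.2 and 76.6 FPKM and 6.47, 12.6, 4.74 and 10.7 FPKM.

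The BM GFP+ library stood apart on this list. *Procr*, which encodes the HSC marker EPCR, was at 106, 113, 0 and 60.8 FPKM and *Cd34* at 221, 226, 48.4 and 182 FPKM. In each case BM GFP- cells were, on the log scale, closer to both FL libraries than to BM GFP+ cells, and the difference between tissues was past 2-fold in GFP+ cells only. *Nkx2-3* (53.4, 77.8, 0 and 45.6 FPKM) and *Meis1* (137, 94.3, 21.5 and 67.04 FPKM) among the transcription factors showed the same order. Of 21 surface genes, 14 were lower in BM GFP+ than in BM GFP- cells, and 20 of 25 stem-cell transcription factors were. Tissue and fraction are thus not separable for these genes, since 1 library decides their values.

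Among the 25 stem-cell transcription factors, 3 were called higher in the FL and 1 in the BM, with median differences of 1.21 and 0.49, and with equal totals 6 and 1 were called. *Mecom*, which sustains HSC self-renewal, was at 45.1, 59.01, 6.29 and 13.5 FPKM, *Mllt3* at 37.2, 32.1, 5.14 and 11.4 FPKM, and *Mycn* as given above. The BM-higher factor was *Egr1*, an early-response gene that restrains HSC division, at 0.110, 1.16, 37.4 and 80.9 FPKM. *Runx1* (16.01, 18.96, 24.4 and 12.4 FPKM), *Fli1* (102, 95.4, 86.6 and 64.1 FPKM) and *Tal1* (35.4, 19.6, 8.51 and 14.2 FPKM), core factors of the HSC programme, were present in every library and not called. *Gfi1*, a repressor that limits HSC proliferation, was an opposite call at 0.147, 20.9, 7.66 and 5.28 FPKM. Of 19 *Hox* A and B cluster genes 13 were compared and 0 were called in either direction, with 7 higher in the FL among GFP+ cells and 12 among GFP- cells. The most abundant were *Hoxa9* (36.2, 23.99, 8.31 and 16.98 FPKM), *Hoxa10* (33.1, 24.6, 3.03 and 14.1 FPKM) and *Hoxa7* (31.1, 21.03, 11.9 and 12.2 FPKM), each lowest in the BM GFP+ library. With equal totals 4 *Hox* genes passed the threshold in the FL direction.

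Components of BMP signalling were compared because the reporter reads this pathway. Of 24 listed genes 17 were compared, and 5 were called higher in the FL (29.4%, against 4.70% of all genes). Another 2 were called higher in the BM (11.8%, near the 8.60% of all genes). *Smad5*, a signal transducer of BMP receptors, was at 11.8, 9.88, 0.130 and 4.28 FPKM, the type 2 receptor *Acvr2b* at 2.74, 2.04, 0 and 0 FPKM, the inhibitory *Smad6* at 3.86, 3.3, 0.686 and 0.529 FPKM, and the ubiquitin ligase *Smurf1*, which degrades Smads, at 1.91, 4.56, 0 and 0.596 FPKM. The fifth was *Eng*. Apart from *Eng* these were low transcripts, under 12 FPKM. Higher in the BM were the target gene *Id2*, at 10.95, 9.95, 132 and 23.5 FPKM, and the pseudoreceptor *Bambi*, at 0.0145, 1.197, 1.31 and 4.49 FPKM. *Id1*, the best-known BMP target, was at 109, 56.5, 70.4 and 17.5 FPKM and *Id3* at 96.6, 97.03, 119.8 and 46.6 FPKM, so that both exceeded 2-fold in GFP- cells alone. With equal totals 7 of the 17 were called higher in the FL and 0 in the BM. With equal upper quartiles these counts were 5 and 2, so the 2 BM calls depended on which scaling was used.

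Early-response genes were higher in the BM in both fractions. Of 25 listed genes 22 were compared, and 17 were called higher in the BM (77.3%, against 8.60% of all genes) and 0 in the FL. The median differences were -3.10 and -2.36. *Fos*, which pairs with Jun proteins to form AP-1, was the fourth of the leading BM genes with at least 1 FPKM in every library: it was at 5.52, 1.99, 768 and 638 FPKM, and both BM libraries were far above both FL libraries. *Jun* was at 22.1, 33.03, 471 and 418 FPKM and *Junb* at 30.8, 12.5, 744 and 379 FPKM. *Dusp1*, a phosphatase that shuts off MAP kinases, was at 1.37, 25.8, 435 and 478 FPKM and *Zfp36*, which destabilises cytokine transcripts, at 16.3, 12.6, 219.7 and 135 FPKM. *Klf2*, a quiescence factor of lymphocytes, was at 0, 0.749, 127 and 32.3 FPKM, and *Btg2*, an antiproliferative gene, at 2.04, 3.14, 69.3 and 54.9 FPKM. *Ier2* (73.9, 76.8, 459 and 570.0 FPKM) and *Dusp2* (32.3, 43.4, 211 and 213 FPKM) were substantial in the FL as well. In 11 of the 17 called genes BM GFP+ and GFP- values lay within 2-fold. In 5, among them *Klf2*, the BM GFP+ value was over 2-fold higher, and *Egr1* was over 2-fold higher in BM GFP- cells. Summed FPKM of the list was 230.5, 254, 3756 and 3218, so the sums of both BM fractions were close. Early-response transcripts can also be induced while tissue is dissociated and sorted and, since the BM was handled differently from the FL, handling and tissue cannot be told apart. With equal totals 16 of the 17 were still called. *Nr4a1* (9.59, 2.36, 19.5 and 67.5 FPKM) and *Gadd45b* (8.54, 2.84, 15.4 and 15.02 FPKM) passed the threshold in GFP- cells only, and *Fosl2* was near 1 FPKM or lower throughout. Of 19 heat shock genes, another handling-sensitive group, 4 were higher in the BM (21.1%, against 8.60% of all genes): *Hspa1a*, *Hspa5*, *Bag3* and *Dnajc3*. With equal totals 0 were called and the median of the mean difference turned from -0.21 to 0.08. With equal upper quartiles 3 heat shock genes were called higher in the BM and that median was -0.1.

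Every compared MHC class II gene was higher in the BM. These genes encode the surface molecules that present peptides to helper T cells, together with the chaperones that load them, and 11 of 11 were called, with median differences of -7.25 and -4.34. The alpha chain *H2-Aa* was the leading BM gene of all, at 0.179, 0.0741, 2720.5 and 794 FPKM, followed by *H2-Ab1* at 0.232, 0.267, 2579.8 and 764 FPKM and *H2-Eb1* at 0.0528, 0.572, 1290.5 and 343 FPKM. The invariant chain *Cd74* was at 6.17, 9.19, 8726 and 2638 FPKM. In the FL the 3 classical chains were under 1 FPKM in both libraries, and *H2-DMa*, part of the peptide exchange factor, was the highest member at 15.3, 14.5, 282 and 159 FPKM. *Ciita*, the master coactivator of the class II genes, was at 0, 0.166, 40.3 and 5.39 FPKM. In the BM all 11 were higher in the GFP+ library, 9 of them by over 2-fold, and summed FPKM of the list was 25.01, 36.7, 16399.8 and 4973. B-lineage marker transcripts, which come from cells that express class II genes, were likewise highest in BM GFP+ and next in BM GFP- cells, with a summed FPKM of 96.6, 44.97, 4069 and 1149, and their part was not tested.

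**Figure D3:**
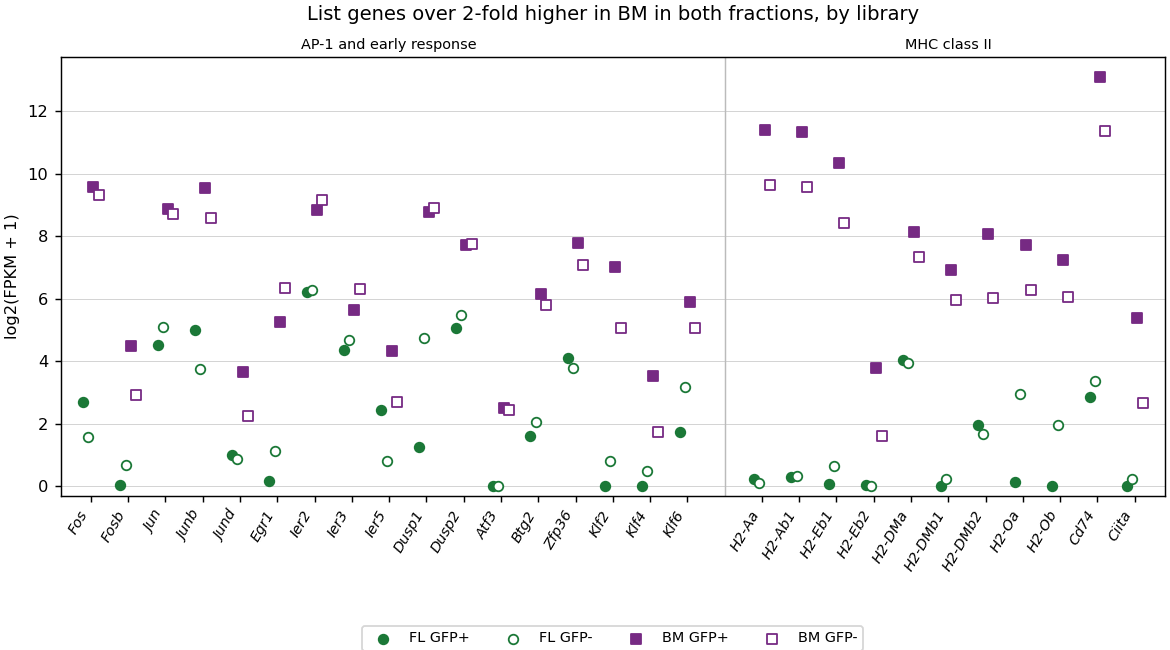
The log2(FPKM + 1) of each library is shown for the 17 early-response and 11 MHC class II genes that were over 2-fold higher in the BM in both fractions, with symbols as in the plot of FL-higher genes and 1 library per symbol. The 2 BM squares nearly coincide for *Fos*, *Jun*, *Dusp1* and *Atf3*, whereas the GFP+ square lies above the GFP- square for all 11 class II genes.

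Class II promoters share the conserved X and Y boxes on which the Ciita complex assembles, and those of 2 leading genes are shown because their transcripts were higher together. The windows run from 250 bases before to 50 after the start (RefSeq, GRCm38.p6), 5′ to 3′ in the direction of the gene, with the Y box letters CTGATTGG in capitals:
H2-Aa, chr17:34287774-34288073, minus strand: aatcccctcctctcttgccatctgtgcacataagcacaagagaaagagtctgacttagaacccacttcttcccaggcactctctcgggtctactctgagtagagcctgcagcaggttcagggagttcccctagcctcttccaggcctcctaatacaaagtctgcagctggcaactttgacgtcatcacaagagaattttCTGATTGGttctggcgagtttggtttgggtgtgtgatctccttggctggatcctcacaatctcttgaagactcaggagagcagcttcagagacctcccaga
H2-Eb1, chr17:34305617-34305916, plus strand: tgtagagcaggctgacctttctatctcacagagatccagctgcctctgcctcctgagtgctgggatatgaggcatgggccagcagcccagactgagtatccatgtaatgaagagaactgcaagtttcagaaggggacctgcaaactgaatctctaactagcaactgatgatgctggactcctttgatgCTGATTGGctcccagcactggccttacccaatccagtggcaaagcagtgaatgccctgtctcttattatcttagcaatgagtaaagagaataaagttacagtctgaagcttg
On either strand these letters were found in 1346 of 32851 promoter windows (4.097%). Of the class II genes 8 matched a window on chromosome 17, and 4 of them (*H2-Aa*, *H2-Eb1*, *H2-Eb2* and *H2-Oa*) held the letters. The chromosome that holds *Cd74* was left out of the match by choice, so *Cd74* had no window in it. For *H2-Ab1* and *Ciita* no window was found on the chromosomes kept. *H2-DMa*, *H2-DMb1*, *H2-DMb2* and *H2-Ob* did not have this exact string in the window, and were BM-higher as well. The match is a description of letters.

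MHC class I and peptide-loading genes were also higher in the BM, by less. Of 20 compared genes 12 were called and 0 were higher in the FL, with median differences of -1.98 and -1.49. *B2m*, the light chain of all class I molecules, was at 781, 885, 4033 and 2856 FPKM, *H2-K1* at 232, 271, 1244 and 1308 FPKM and *H2-D1* at 307, 258, 1709 and 1254 FPKM, so that these were expressed in the FL and several-fold higher in the BM. *H2-Q7* showed the largest differences of the list, at 0.104, 2.29, 235 and 289.7 FPKM; it has close paralogs, and reads shared among them may be split. The immunoproteasome subunits *Psmb8* (166, 146, 659 and 569 FPKM), *Psmb9* (64.9, 81.8, 264 and 269.9 FPKM) and *Psmb10* (115, 97.7, 300.1 and 217 FPKM) were higher as well, and *Nlrc5*, the class I coactivator, was at 0.0880, 0.409, 3.25 and 3.65 FPKM. In 11 of the 12 called genes the BM fractions were within 2-fold, unlike the class II genes. Of 38 proteasome subunits 4 were called higher in the BM (2 with equal totals), these 3 and *Psmb3*. That share, 10.5%, is near the 8.60% of all genes, and the median of the whole list turned from -0.18 to 0.33 with equal totals. Interferon-stimulated genes gave 11 BM-higher (28.2%) and 0 FL-higher calls of 39, with 4 opposite calls. The called genes included *Ly6e*, at 117, 99.5, 838 and 403 FPKM, and the viral tetherin *Bst2*, at 59.9, 70.3, 294 and 168 FPKM. With equal totals 4 interferon-stimulated genes and 9 class I genes were called higher in the BM.

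Transcripts of differentiating myeloid cells made up many of the leading BM genes. All 12 late neutrophil markers and all 7 primary granule markers were called. *S100a8* and *S100a9*, the calprotectin subunits of neutrophils, were at 25.3, 9.78, 25286 and 3189 FPKM and 2.06, 13.6, 14307 and 1871 FPKM. The secondary granule genes *Ngp* (0.144, 0.119, 4035 and 761 FPKM), *Camp* (0, 0.855, 4559.8 and 508 FPKM), *Lcn2* (0.104, 0, 1785 and 331 FPKM) and *Ltf* (0, 0.501, 994 and 251 FPKM) were at or near 0 in the FL, as were *Retnlg* (0, 0, 1229 and 232 FPKM) and *Chil3* (0, 0.0280, 919 and 153 FPKM). In the BM the late neutrophil list depended strongly on the fraction: its summed FPKM was 28.9, 28.5, 53429.6 and 7379.5, and 11 of 12 genes were over 2-fold higher in the GFP+ library. Primary granule genes, which are already active in granulocyte-monocyte progenitors, were instead alike in both BM fractions. *Elane*, neutrophil elastase, was at 79.9, 11.7, 3991 and 3042 FPKM, *Ctsg* at 11.4, 27.1, 1762 and 1868 FPKM and *Mpo* at 247, 117, 5777 and 4754 FPKM, and the summed FPKM of the list was 577, 291, 13537 and 11285. *Slpi*, a protease inhibitor (0, 0, 524 and 482 FPKM), and *Cst7*, a cathepsin inhibitor (0, 0, 157 and 140.2 FPKM), shared that evenness and were listed at 0 in both FL libraries.

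**Figure D4:**
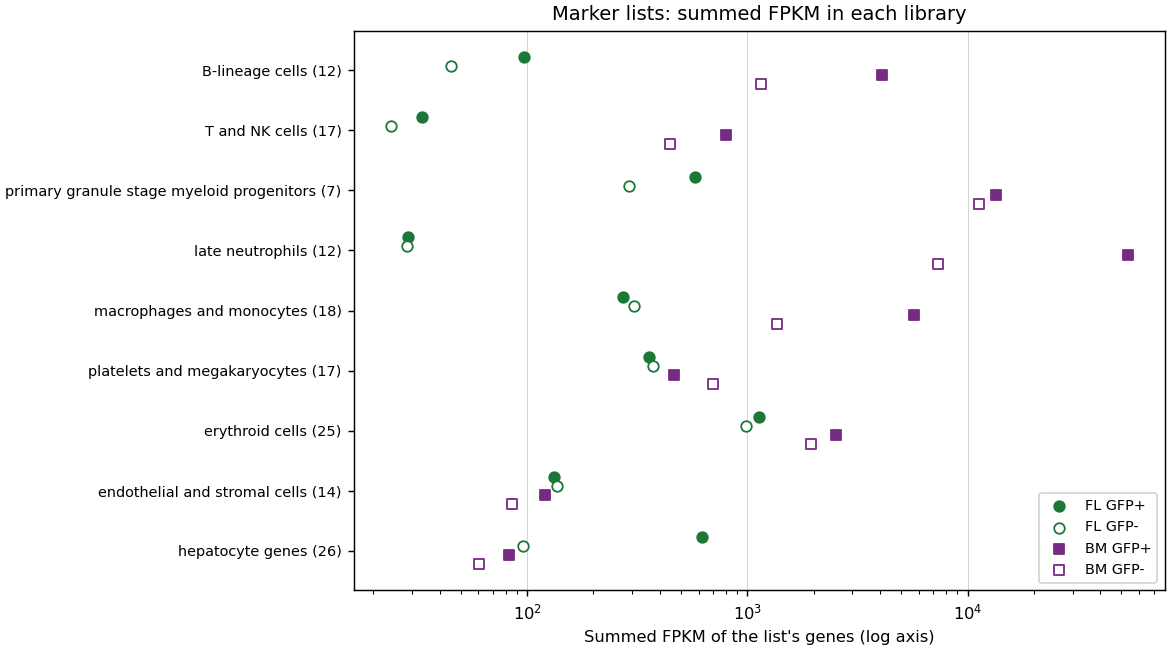
Summed FPKM of 8 cell type marker lists and of the hepatocyte genes is shown for each library on a log axis, with the number of listed genes in the files in parentheses and 1 library per symbol. Late neutrophil markers range from 28.5 in FL GFP- to 53430 in BM GFP+ cells, whereas platelet, erythroid and endothelial lists lie close together.

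Lymphoid transcripts were higher in the BM too. All 12 B-lineage markers and 12 of 17 T and NK markers (70.6%) were called, against 8.60% of all genes. *Cd79a*, part of the B cell receptor, was at 7.16, 0.766, 1063 and 265 FPKM. *Cd3e*, part of the CD3 antigen used for lineage exclusion in both tissues, was at 0, 0, 23.2 and 5.63 FPKM, listed at 0 in the FL. Of 26 lymphoid priming genes 13 were higher in the BM and 1 in the FL. *Dntt*, which adds bases to rearranging receptor genes in early lymphoid progenitors, was at 0, 0, 33.3 and 52.5 FPKM and *Rag2* at 0.0142, 0.0948, 2.51 and 2.57 FPKM, and for both the BM GFP- library was the higher of the 2. *Cd52*, a small surface glycoprotein of lymphocytes, was at 15.1, 7.38, 2117 and 409.9 FPKM and *Il7r* at 0, 0.0996, 20.6 and 4.64 FPKM. *Ikzf2*, Helios, was the FL-higher exception at 12.2, 11.5, 0.588 and 0.920 FPKM, even in both fractions. Among leading BM genes *Ly6d* (0, 0, 1016 and 210.1 FPKM) marks early B-cell progenitors and *Faim3* (0, 0, 577 and 170.0 FPKM) encodes an IgM receptor. Of 18 macrophage and monocyte markers 9 were higher in the BM (6 with equal totals), among them *Lyz2* at 156, 220.4, 4551 and 1042 FPKM. *Ifi27l2a*, an interferon-responsive gene, was at 10.7, 1.08, 727 and 93.6 FPKM.

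The other marker lists gave fewer calls. Of 17 platelet and megakaryocyte markers 6 were higher in the BM (35.3%, against 8.60% of all genes), led by *Pf4* (platelet factor 4) at 0, 6.45, 245 and 315 FPKM. *Vwf* was at 5.68, 4.903, 0.955 and 3.55 FPKM with no call. Of 25 erythroid markers 6 were higher in the BM (24.0%, and 4 genes with equal totals), among them *Klf1* (19.6, 13.9, 86.7 and 52.04 FPKM) and *Car1* (9.99, 0, 236 and 338 FPKM). Among adult globins 3 of 4 were higher in the BM, *Hbb-b1* at 629.8, 623, 14659 and 2042 FPKM and *Hba-a1* and *Hba-a2* with values identical to each other, and the excess was mainly in BM GFP+ cells. Of 10 compared endothelial and stromal markers *Tie1* was higher in the FL, at 85.7, 81.3, 0.0370 and 29.2 FPKM, and *Cxcl12* (0, 1.82, 67.7 and 7.66 FPKM) and *Pdgfrb* (0, 0, 3.47 and 3.16 FPKM) were higher in the BM. *Pdgfra*, *Col1a1* and *Stab2* stayed under 1 FPKM everywhere. In cells sorted as lineage negative, *Cd3e*, late granule and globin transcripts were each highest in the BM GFP+ library, and the part of mature cells in the BM-higher calls was not tested.

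Few cell-cycle genes were called. Of 40 DNA replication genes 1 was called higher in the FL (*Pole*, at 13.5, 13.6, 5.36 and 5.09 FPKM) and 0 in the BM, with median differences of 0.58 and 0.01. Of 40 mitosis genes 3 were called higher in the FL, the kinesin *Kif2c* (68.5, 51.1, 8.08 and 22.8 FPKM), separase *Espl1* (14.2, 15.4, 2.21 and 5.75 FPKM) and the centromere protein *Cenpf* (12.2, 6.1, 3.61 and 1.92 FPKM), and 0 in the BM, with median differences of -0.02 and 0.38. Both shares, 2.50% and 7.50%, are near the background of 4.70%. With equal totals these counts were 5 and 6, but 1335 of 13740 compared genes were then FL-higher, against 639 of 13609. Of 19 compared CDK inhibitors and G1 cyclins 2 were called higher in the BM (10.5%) and 1, *Cdkn1c*, in the FL (5.26%). Both shares are near the 8.60% and 4.70% of all genes. The BM-higher members were *Cdkn1a* (p21), at 0.230, 2.06, 3.26 and 8.24 FPKM, and *Cdkn2c* (p18), at 0, 0, 8.89 and 4 FPKM. *Cdkn1b* (p27) was at 0.122, 5.13, 21.9 and 9.199 FPKM, with a marked difference in GFP+ cells only. *Ccnd1*, at 49.7, 29.98, 10.98 and 17.3 FPKM, was lowest in the BM GFP+ library.

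Most genes of basic metabolism and translation were called in neither direction. Of 84 cytoplasmic ribosomal protein genes 6 were called higher in the BM (7.14%, below the background of 8.60%) and 0 in the FL. In GFP+ cells 81 of the 84 and in GFP- cells 82 were lower in the FL than in the BM, with median differences of -1.02 and -0.77. Their summed FPKM was 72009, 63658, 143937 and 110236. With equal totals the median of the mean difference was -0.37 in place of -0.90, and 0 were called higher in the BM. Oxidative phosphorylation subunits gave 7 BM-higher calls of 83 (8.43%, near that background) and medians of -0.88 and -0.66; the called members included *Cox6a2*, a striated muscle isoform listed at 0 in the FL, at 0, 0, 41.9 and 11.1 FPKM, and with equal totals 1 was called. Clustered histone genes, whose transcripts mostly lack poly(A) tails, gave 19 BM-higher (35.8%, against 8.60% of all genes) and 0 FL-higher calls of 53. Among them was the linker histone *Hist1h1c* at 48.7, 49, 308 and 228 FPKM, and 13 remained with equal totals. Ribosome biogenesis genes gave 1 FL-higher call of 27 (3.70%, near the 4.70% of all genes), *Polr1b*, and their medians had opposite signs in the fractions, 0.63 and -0.28. Glycolysis gave 3 BM-higher calls of 29 (10.3%, near that background), the myeloid hexokinase *Hk3* (7.55, 0.887, 99.1 and 61.4 FPKM), *Pfkp* and the lactate exporter *Slc16a3*, but 4 FL-higher and 2 BM-higher calls with equal totals. Cholesterol synthesis gave 1 call each way of 23 (4.35%, against 4.70% and 8.60% of all genes) and 1 opposite call. The calls were *Srebf2*, the sterol-responsive regulator, in the FL (95.8, 98.6, 41.8 and 38.3 FPKM) and *Sc5d* in the BM, of which the latter was lost with equal totals. Foxo factors and antioxidant enzymes gave 3 BM-higher calls of 27 (11.1%, near that background), *Prdx5*, *Gclm* and *Gsr*, of which 2 were called with equal totals. *Sesn1* was the FL-higher exception, at 185, 222, 78.4 and 58.3 FPKM.

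Homing and adhesion receptors divided by molecule. Of 28 compared genes 6 were higher in the FL (21.4%) and 5 in the BM (17.9%), against 4.70% and 8.60% of all genes. With equal totals these counts were 8 and 3. Besides *Esam* and *Robo4*, *Gpr56*, an adhesion receptor of HSCs, was abundant in the FL at 750.5, 657, 128 and 297 FPKM, the junction molecule *Jam3* was at 56.2, 40.8, 0.561 and 11.6 FPKM, the integrin *Itga4* at 20.8, 14.5, 8.98 and 5.71 FPKM and the focal adhesion kinase *Ptk2* at 24, 8.21, 2.84 and 1.402 FPKM. The BM-higher genes included *Cxcr4*, the receptor that retains HSCs in the marrow, at only 0.232, 0.547, 4.399 and 2.26 FPKM, *Selplg*, the selectin ligand, at 54.7, 61.7, 239 and 133 FPKM, *Itgb7* and *Vcam1*. The median of the list was -0.15 in both fractions, and that of the mean difference turned from -0.16 to 0.37 with equal totals.

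**Figure D5:**
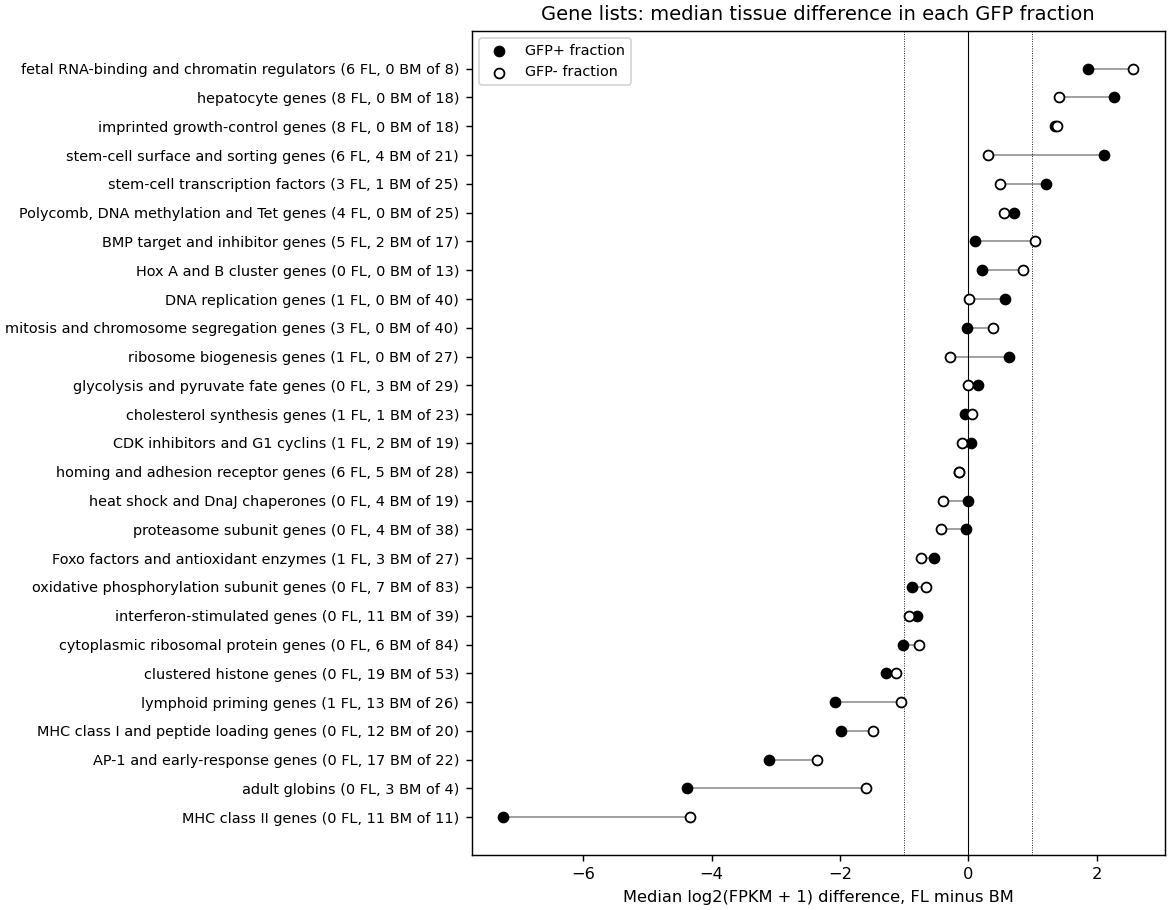
For 27 gene lists with over 3 compared genes, the median FL minus BM difference in log2(FPKM + 1) is shown among GFP+ (filled) and GFP- cells (open), with the numbers called higher in the FL and in the BM of those compared beside each name; dotted lines mark 2-fold. Fetal regulators, hepatocyte and imprinted genes lie to the right in both fractions, and MHC class II, globin and early-response genes lie furthest to the left.

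Some genes had opposite differences in the 2 fractions. The leading examples with FL-higher GFP+ cells were *Dancr* (18.5, 8.304, 0 and 78.97 FPKM), *Pccb* (13.1, 0.179, 0 and 9.01 FPKM), *Phlda2*, *Mfsd2b* (16.5, 4.53, 2.01 and 31.4 FPKM) and the microRNA processing factor *Dgcr8* (36.5, 14.9, 2.92 and 87.5 FPKM). BM GFP+ cells had the lowest value of all 5, and BM GFP- cells the highest of all but *Pccb*. The leading examples in the other orientation were *2010111I01Rik* (0.144, 153, 20.5 and 16.9 FPKM), *Bcl2l14* (0.0358, 14, 4.24 and 1.95 FPKM), *Jup* (0.0362, 18.2, 5.02 and 3.01 FPKM), *Cd5l* (0, 9.82, 9.92 and 1.37 FPKM) and *Sema4f* (0.0502, 3.796, 4.73 and 0.0693 FPKM), and here the FL GFP+ library was lowest, at or near 0. *Dancr* shares its values with *Snora26*, *Dgcr8* with *Mir1306* and *2010111I01Rik* with *Mir23b*, *Mir24-1* and *Mir27b*. With 1 library per group these differences between fractions were not tested.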

How the data were processed

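RNA of sorted LSK-SLAM cells was sequenced in 4 libraries, 1 per tissue and GFP fraction. The authors prepared SMARTER libraries for the HiSeq2000, mapped them with Bowtie and TopHat, and deposited FPKM from Cufflinks, Cuffquant and Cuffnorm (geometric normalization). The study's methods name mm9 and the submitters' processing notes mm10; the deposited symbols carry no coordinates. The study states the uniquely mapped reads of each library, but the FPKM values carry no counts, so no counting error was computed for a single value. Groups were taken from the labels.

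Differences in log2(FPKM + 1) were computed for genes with at least 1 FPKM in any library. The fold rule (both fractions over 2-fold) and limma 3.58.1 (R 4.3.3; lmFit with the GFP fraction as a block, eBayes with trend) were tested on simulated data. Values were handled in Python 3.11.15 (pandas 2.3.3, numpy 2.4.6) and plotted with matplotlib 3.10.9. With 1 library per group nothing says that libraries came from separate animals. The p-values measure only the spread between these samples, drawn mostly from other genes than the one tested.

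Genes named were members of 28 gene and 8 marker lists, the 15 leading genes per direction by the smaller of both differences (and 8 with at least 1 FPKM in all libraries), 5 opposite genes per orientation (all without short RNA symbols), and 5 limma genes per direction; a few such genes are not reported here. Among genes compared, 505 symbols shared identical values and are not independent. The members and lists were chosen with earlier results of these data known. The alternatives were pseudocount, low-value filters, equal totals or upper quartiles, median centring, fold threshold, limma settings and leaving out each library, and 1 fraction alone was added after seeing the data. Sequences are from RefSeq (GRCm38.p6) and GENCODE vM1 (NCBIM37).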

Additional observations from a re-analysis of the deposited data

Results flagged for a closer look

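Genes of the lists and the leading opposite genes were flagged where the tissue difference had 1 sign, over 2-fold, among GFP+ cells and the other sign, over 2-fold, among GFP- cells. The value given for each is the GFP+ difference minus the GFP- difference, in log2(FPKM + 1), FL minus BM. With 1 library per group none of these differences was tested. With GFP+ cells higher in the FL and GFP- cells higher in the BM, the value was 7.39 for *Dancr*, 7.03 for *Phlda2*, 6.91 for *Pccb*, 5.73 for *Dgcr8* and 5.09 for *Mfsd2b*. It was 4.50 for *Hist1h3d* and 3.75 for *Hist1h2bl*, clustered histones, and 4.18 for *Tubb1*, a megakaryocyte tubulin. Of the interferon-stimulated genes, *Gbp2* had 3.41, *Xaf1* 2.57 and *Irgm1* 2.40, whereas *Parp14* had -4.21. *Msmo1*, of cholesterol synthesis, had 2.14.

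In the other orientation the value was -7.34 for *2010111I01Rik*, -5.64 for *Cd5l*, -4.80 for *Jup*, -4.69 for *Bcl2l14* and -4.61 for *Sema4f*. The repressor *Gfi1* had -4.72, the platelet granule gene *Nbeal2* -4.06, the VEGF receptor *Kdr* -3.76, the chromatin regulator *Asxl1* -2.92 and *Notch1* -2.63. In this orientation FL GFP+ cells had the lowest FPKM of the 4 libraries for all of these but *Notch1*, at 2.87, 4.19, 8.53 and 1.06 FPKM, for which BM GFP- cells had it.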

How the results depend on the processing

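Of 240 values of 40 leading genes under the alternatives, 0 reversed. These genes were chosen for large differences of the same sign in both fractions, so a reversal was hardly possible. For values of 1 fraction alone it was not possible at all. The counts of genes higher in the FL (639) and in the BM (1170) depended on the settings. FL-higher genes numbered 976 with a pseudocount of 0.1, 364 with at least 1 FPKM in all 4 samples, 1335 with equal FPKM totals, 84 at 4-fold and 1368 at 1.5-fold. BM-higher genes numbered 414 with at least 1 FPKM in all 4 samples, 449 at 4-fold and 2081 at 1.5-fold. FL-higher and BM-higher genes numbered 793 and 1047 with equal upper quartiles, and 699 and 1112 with median-centred ratios. In GFP+ cells alone 2801 and 3856 genes were over 2-fold higher in the FL and BM, and in GFP- cells alone 1785 and 2010. Opposite calls (345) numbered 782 with a pseudocount of 0.1, 106 with at least 1 FPKM in all 4 samples, 50 at 4-fold and 1035 at 1.5-fold.

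The limma counts (234 FL-higher, 769 BM-higher) were 62 and 318 with a pseudocount of 0.1, 34 and 254 with at least 1 FPKM in 2 samples, 94 and 291 with it in all 4, 22 and 167 with no filter, 479 and 470 with equal totals, 9 and 66 without the trend and 18 and 172 without the block for the GFP fraction. Fits without any 1 library also lacked the block for the GFP fraction, and the sample left alone is then assumed to vary like the others, so their counts are not given. Tissues were paired by GFP fraction only, since the labels carry no replicate numbers. Low FPKM, values without counts and 1 library per group limit every value near 1 FPKM.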
